A study of Mus musculus with 4 samples.

Results

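The circadian clock genes examined here were 10: the activators Arntl (which encodes BMAL1), Clock and Npas2, the repressors Nr1d1, Nr1d2, Per1, Per2 and Per3, and the output factors Dbp and Tef. They were taken as the non-control probes whose accession mapped to these symbols, which gave 11 of the 55681 probes of the array and 10 of the 20145 genes that could be named. The mRNA was measured in the brown adipose tissue (BAT) of transgenic (Tg) mice that were injected with the ligand AP20187 (AP) or with its vehicle, to find what an activated eIF2α kinase changes in this tissue. All 4 mice carried maP2::Fv2E-PERK, a form of the kinase PERK that AP brings together and switches on, under the mouse aP2 (Fabp4) promoter in the C57/BL6N strain, so wild-type mice were not part of the comparison. The aP2 promoter drives the transgene in white and brown fat and is known to be active in macrophages as well. The mice were males of 8 weeks. The 2 vehicle-treated mice received ethanol, polyethylene glycol and Tween-20 in water through an intraperitoneal injection, the 2 AP-treated mice received AP at 1 ng/g according to the labels (the study's legend for this experiment gives a higher dose), and BAT was taken 12 h later. The study's methods place single injections within a window of a few hours in the morning, which puts the collection in the evening. The hour of each mouse within that window, the light schedule and the diet of these mice were not given in the sources used here, so a difference in hour of up to the width of the window and an effect of AP cannot be told apart for genes that cycle over the day.

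The clock is a feedback loop of transcription. CLOCK, or its relative NPAS2, pairs with BMAL1 and activates genes through E-boxes, among them the Per, Cry and Nr1d genes, and the PER and CRY proteins then return to the nucleus and repress that pair. A second loop controls Arntl itself, which the nuclear receptors REV-ERBα and REV-ERBβ (Nr1d1 and Nr1d2) repress and the ROR receptors activate through a shared DNA element. DBP, TEF and HLF carry the rhythm to other genes by binding D-boxes, where NFIL3 opposes them. In brown fat the loop is known to impose a daily rhythm on heat production and fuel use, with Arntl peaking at the opposite time of day from Dbp and Nr1d1.

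The 250 bases before the start of a gene were available in the RefSeq promoter table (GRCm38.p6) for 9 of the 10 genes and were searched on both strands for 4 elements of this loop and of stress signalling. Sequences are printed 5′ to 3′ on the strand of the gene with matches in capitals. Arntl, Per3 and Dbp are shown because the AP-treated mice did not overlap the vehicle-treated mice at these genes, and Per1 because its mRNA differed most between mice of the same group.
Arntl, chr7:113207215-113207464, plus strand: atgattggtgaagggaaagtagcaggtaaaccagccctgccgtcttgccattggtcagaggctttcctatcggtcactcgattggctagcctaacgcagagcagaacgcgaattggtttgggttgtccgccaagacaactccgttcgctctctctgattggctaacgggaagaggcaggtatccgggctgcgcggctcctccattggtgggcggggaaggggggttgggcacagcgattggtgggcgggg
Per1, chr11:69098699-69098948, plus strand: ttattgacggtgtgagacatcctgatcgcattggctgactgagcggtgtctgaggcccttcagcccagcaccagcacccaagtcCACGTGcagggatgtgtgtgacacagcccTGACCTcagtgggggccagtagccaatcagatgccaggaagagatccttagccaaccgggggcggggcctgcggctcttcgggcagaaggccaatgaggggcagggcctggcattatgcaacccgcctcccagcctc
Per3, chr4:151044666-151044915, minus strand: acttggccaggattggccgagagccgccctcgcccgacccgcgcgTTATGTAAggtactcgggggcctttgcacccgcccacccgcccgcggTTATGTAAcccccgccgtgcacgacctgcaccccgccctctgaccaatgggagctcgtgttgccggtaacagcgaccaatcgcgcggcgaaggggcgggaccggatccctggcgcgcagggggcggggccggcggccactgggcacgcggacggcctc
Dbp, chr7:45704997-45705246, plus strand: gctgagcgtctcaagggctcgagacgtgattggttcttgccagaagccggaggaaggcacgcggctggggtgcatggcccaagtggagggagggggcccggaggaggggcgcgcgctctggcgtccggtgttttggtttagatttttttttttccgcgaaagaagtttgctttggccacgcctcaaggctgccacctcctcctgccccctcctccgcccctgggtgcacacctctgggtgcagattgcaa
The E-box CACGTG occurred in 6.04% of the 27025 promoters of the table, and among the 9 clock genes it was found at Per1, beginning 166 bases before the start, and at Tef, 127 bases before it. The core of the ROR element, AGGTCA, occurred in 13.8% of promoters, and at Per1 (137 bases before the start, on the opposite strand in the sequence above) and Nr1d2 (77 bases). The D-box TTANGTAA, in which N is any base, occurred in 2.11% of promoters, and Per3 carried 2 matches, at 205 and 158 bases before the start. The element TGATGNAA, the core of the sites of C/EBP and ATF factors such as ATF4, occurred in 3.53% of promoters and was found in 0 of the 9. No matches overlapped, and the windows of Arntl and Dbp held none of the 4 elements, which says only that these letters are not in the 250 bases shown.

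Each value below is the log2 processed signal of a probe minus the 75th percentile of its array, so 0 is the level of that percentile and a difference of 1 is a 2-fold difference. Only probes that were well above background in the 2 mice of at least 1 group were compared, and these were 24973 probes with 12791 named genes. The 4 arrays were on 1 slide and in 1 scan, and had 46.4 to 49.0% of spots well above background and 0 saturated spots. On the slide, the vehicle arrays were at position 1 and the AP arrays at positions 3 and 4, so position and treatment cannot be told apart. The array of vehicle replicate 2 was alone in column 2, and the other 3 were in column 1. It was also the brightest, with a 75th percentile signal of 158.7 against 118.5 to 127.6. For vehicle replicate 2, the mouse and its array thus cannot be told apart. The known targets of this pathway marked the AP-treated mice: Trib3 was 2.78 and 2.33 with the vehicle and 6.26 and 8.01 with AP, and Ddit3 was 2.18 and 1.86 with the vehicle and 3.03 and 4.22 with AP. All 10 brown adipocyte markers were measured in every mouse, and their summed signal, in units of the 75th percentile, was 8671 and 5697 with the vehicle and 7022 and 7896 with AP. Elovl3 and Dio2 of this list differed widely between mice of the same group, which the sum does not show. On the log2 scale, Elovl3 was 6.08 and -1.07 with the vehicle and 3.52 and 5.76 with AP. Dio2 was 0.49 and 1.53 with the vehicle and -1.78 and 3.33 with AP, while the brighter Ucp1 was 9.66 to 10.41 in the 4 mice. Markers of other tissues differed between mice as well, most of all between the vehicle-treated mice. The sum of 8 skeletal muscle markers was 27.4 in vehicle replicate 1 and 500.0 in vehicle replicate 2, with the AP-treated mice between them at 347.5 and 181.1. The sum of the 7 of 10 leukocyte markers that were measured was 125.2 in vehicle replicate 2 and 52.9 to 56.4 in the other 3, with Cd79a not well above background on any array, and that of 4 of 6 white adipose markers was 13.4 against 3.16 to 3.92, with Hoxc8 and Wt1 not well above background. Of these 4, Nnat and Lep were highest in vehicle replicate 2, and Nrip1 and Agt were lowest there. The 3 endothelial markers summed to between 31.6 and 36.4 in all 4 mice. The part of these markers in the results below was not tested, and values without vehicle replicate 2 are given where they turn a direction. In whole tissue, fewer cells of a type and less RNA per cell cannot be told apart.

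Of the 10 clock genes, 9 were measured, with 10 probes that were each well above background on all 4 arrays. Npas2, the partner of BMAL1 that can stand in for CLOCK, was not well above background on any array (A_52_P534749), and no fold is given for it. With AP, 7 of the 9 genes had a higher mean and 2, Nr1d1 and Dbp, a lower one, with a median log2 fold change of 0.08 beside 0.011 for all named genes. With normexp background correction the split was 5 higher and 4 lower, and in the authors' table of log2 values, whose median over all probes is itself below 0 at -0.17, it was 2 higher and 7 lower. No probe of the clock genes passed an adjusted p of 0.05 (limma, Benjamini-Hochberg over 24973 probes), and 0% of all probes passed it. At an unadjusted limma p under 0.05 there were 0 of the 9 genes by their brightest probe and 1 of the 10 probes, the second probe of Dbp, beside 6.07% of all probes. The AP-treated mice were both above the vehicle-treated mice at Arntl and Per3 and both below them at Dbp, and the groups overlapped at the other 6 genes. Among named genes the AP-treated mice were both above in 20.1% and both below in 17.3%, so 2 and 1 of 9 are near the background of these arrays. For a single gene in 2 against 2 mice, 0.333 is the smallest p that an exact two-sided permutation test can reach, and all p values measure the spread between these mice alone.

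**Figure D1:**
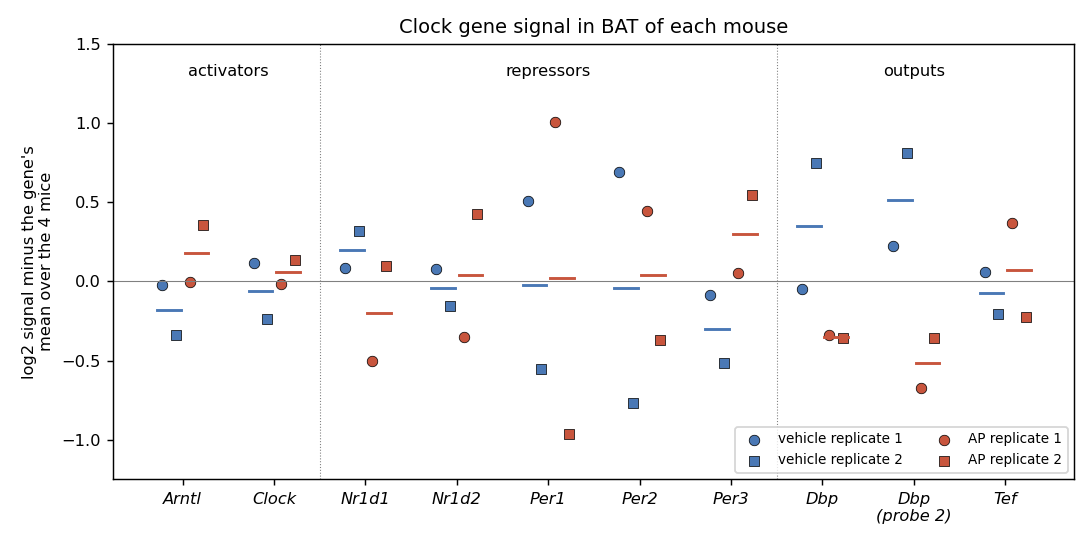
Log2 signal of each measured clock gene in the BAT of each mouse, minus the mean of that gene over the 4 mice. Blue symbols are the vehicle-treated and red symbols the AP-treated mice, circles are replicate 1 and squares replicate 2 (the numbers do not pair mice between groups), and short bars are group means. The red symbols lie above both blue symbols at Arntl and Per3, below both at the 2 probes of Dbp, and on either side of them at Per1.

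Among the activators, Arntl encodes BMAL1, the member whose loss alone is known to stop the loop. Its probe (A_55_P2408588) gave 1.17 and 0.85 with the vehicle and 1.19 and 1.55 with AP. Both AP-treated mice were the higher, but AP replicate 1 and vehicle replicate 1 were almost level. The log2 fold change was 0.36 (standard error 0.25, 95% interval -0.31 to 1.03), or 1.28-fold, with an adjusted p of 0.817 (limma). Leaving out each mouse in turn gave 0.18 to 0.54, with 0.20 without vehicle replicate 2 and 0.18 without AP replicate 2. Clock, which encodes the usual partner of BMAL1 (A_52_P334670), was 1.03 and 0.68 with the vehicle and 0.90 and 1.06 with AP, and the groups overlapped. Its log2 fold change was 0.12 (standard error 0.24, 95% interval -0.50 to 0.74) with an adjusted p of 0.925 (limma), and without vehicle replicate 2 its sign turned, at -0.06.

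The repressors comprise the nuclear receptors of the Arntl loop and the PER proteins. Nr1d1, which encodes REV-ERBα (A_51_P223776), was 1.50 and 1.74 with the vehicle and 0.92 and 1.52 with AP. AP replicate 1 was the lowest of the 4 mice, while AP replicate 2 lay between the vehicle-treated mice, so the groups overlapped. On the log2 scale the difference was -0.40 (standard error 0.29, 95% interval -1.17 to 0.37) with an adjusted p of 0.817 (limma), which came to -0.10 without AP replicate 1. Nr1d2, which encodes the paralog REV-ERBβ (A_52_P303891), was 0.34 and 0.12 with the vehicle and -0.08 and 0.70 with AP. The AP-treated mice were here the lowest and the highest of the 4, with a log2 fold change of 0.08 (standard error 0.33, 95% interval -0.81 to 0.96, adjusted p of 0.970 by limma). AP replicate 1 was thus the lowest mouse for both REV-ERB genes, although their means differed in sign. The sign of Nr1d2 turned without vehicle replicate 2 (-0.04) and without AP replicate 2 (-0.31).

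Per1, the period gene that also responds acutely to glucocorticoids and cAMP (A_55_P1970033), was 3.60 and 2.54 with the vehicle and 4.10 and 2.13 with AP. AP replicate 1 was the highest and AP replicate 2 the lowest of the 4 mice, and the group means were almost the same. The AP-treated mice were 1.97 apart on the log2 scale, or 3.91-fold, and 1.03% of all probes were at least as far apart in this pair. The vehicle-treated mice were 1.06 apart, or 2.09-fold, a distance reached by 8.02% of probes. With this spread, the log2 fold change of 0.04 had a standard error of 0.77 and a 95% interval of -1.99 to 2.07 (adjusted p of 0.995 by limma). Leaving out AP replicate 1 or AP replicate 2 moved it to -0.94 or 1.02, and it was -0.49 without vehicle replicate 2.

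Per2, the period gene whose protein stability helps to set the pace of the loop (A_51_P282760), was -1.70 and -3.16 with the vehicle and -1.94 and -2.76 with AP. Here the vehicle-treated mice were the extremes, 1.46 apart or 2.75-fold, a distance reached by 4.18% of probes, and the AP-treated mice lay between them. Its log2 fold change was 0.08 (standard error 0.59, 95% interval -1.48 to 1.64, adjusted p of 0.984 by limma), and it ran from -0.65 without vehicle replicate 2 to 0.81 without vehicle replicate 1. Per3, the period gene that the loop can do without (A_51_P258493), was -3.30 and -3.73 with the vehicle and -3.16 and -2.67 with AP. Both AP-treated mice were higher than both vehicle-treated mice, by a margin between the nearest mice that was smaller than the distance within either group. This gave a log2 fold change of 0.60 (standard error 0.29, 95% interval -0.17 to 1.38), or 1.52-fold, with an adjusted p of 0.80 (limma), and it stayed between 0.36 (without AP replicate 2) and 0.85 when each mouse was left out. With normexp it was 0.27. In the vehicle-treated mice Per3 was the dimmest of the measured clock genes. Its signal there was near the lowest that was called well above background, where a fold is least certain. Per3 is also the gene with the 2 D-box matches printed above. Replicate 1 was above replicate 2 in both groups at Per1 and Per2 and the reverse held for the AP-treated mice at Per3, so the period genes did not share an order of the mice.

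Of the outputs, Dbp encodes a D-box activator with a strong daily rhythm in many tissues. Its brightest probe (A_55_P2032079) gave 2.62 and 3.41 with the vehicle and 2.33 and 2.31 with AP. The AP-treated mice were almost identical, 0.02 apart, and both lay below the vehicle-treated mice, which were 0.80 apart with vehicle replicate 2 the higher. The log2 fold change was -0.70 (standard error 0.33, 95% interval -1.57 to 0.17), or 1.62-fold lower with AP, with an adjusted p of 0.80 (limma). A second probe (A_55_P2032081) gave 2.85 and 3.44 with the vehicle and 1.96 and 2.27 with AP, and again both AP-treated mice were below both vehicle-treated mice. Its log2 fold change was -1.03 (standard error 0.30, 95% interval -1.82 to -0.25), or 2.04-fold lower, with an unadjusted limma p of 0.021 and an adjusted p of 0.80. The probes gave the same direction, and the log2 fold change of each lay within the 95% interval of the other. Vehicle replicate 2, which carried the most muscle and leukocyte signal, was the highest mouse by both probes, and without it the log2 fold change was -0.30 by the first probe and -0.74 by the second.

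Tef encodes a D-box activator related to DBP (A_55_P1979893). It was 5.16 and 4.90 with the vehicle and 5.47 and 4.88 with AP, and the AP-treated mice were the highest and the lowest of the 4. Their mean gave a log2 fold change of 0.15 (standard error 0.29, 95% interval -0.62 to 0.92, adjusted p of 0.925 by limma), and it was -0.15 without AP replicate 1. Thus the 2 output factors had means of opposite sign, and the difference between them was not tested.

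**Figure D2:**
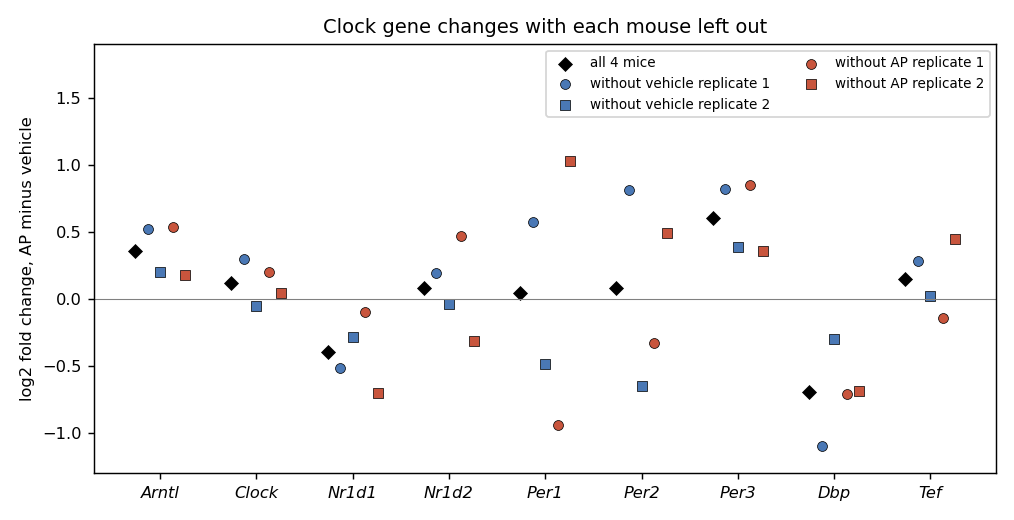
Log2 fold change of AP over vehicle for each measured clock gene (brightest probe) with all 4 mice (diamonds) and with each mouse left out in turn (circles and squares, colored by the group of the mouse left out). Arntl and Per3 stay above 0 and Nr1d1 and Dbp stay below 0 in all 5 fits, and the other 5 genes cross 0 when a mouse is left out.

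The arms of the loop were then compared within each mouse, with each gene centred on its mean over the 4 mice, which makes the difference between arms independent of the scaling of the array. The activators (Arntl and Clock) averaged 0.05 and -0.29 with the vehicle and -0.01 and 0.25 with AP. The 5 repressors averaged 0.25 and -0.33 with the vehicle and 0.13 and -0.05 with AP, and the 2 outputs averaged 0.005 and 0.27 with the vehicle and 0.01 and -0.29 with AP. The groups overlapped for each of the 3 arms. The mean difference, AP minus vehicle, was 0.24 for the activators, 0.08 for the repressors and -0.28 for the outputs, beside an SD between mice of 0.21, 0.31 and 0.20. Without vehicle replicate 2 the difference of the repressors was -0.21.

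The activators minus the repressors and outputs came to -0.14 and -0.13 with the vehicle and to -0.11 and 0.37 with AP. AP replicate 1 was thus at the level of the vehicle-treated mice, and AP replicate 2 alone stood above them. The difference between the groups was 0.26 with an SD between mice of 0.24, and it was 0.02 without AP replicate 2. It depended in part on a single output gene, since it was 0.15 (SD 0.27) with Dbp left out. The members were chosen with results of these mice known, so this difference carries no p value.

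**Figure D3:**
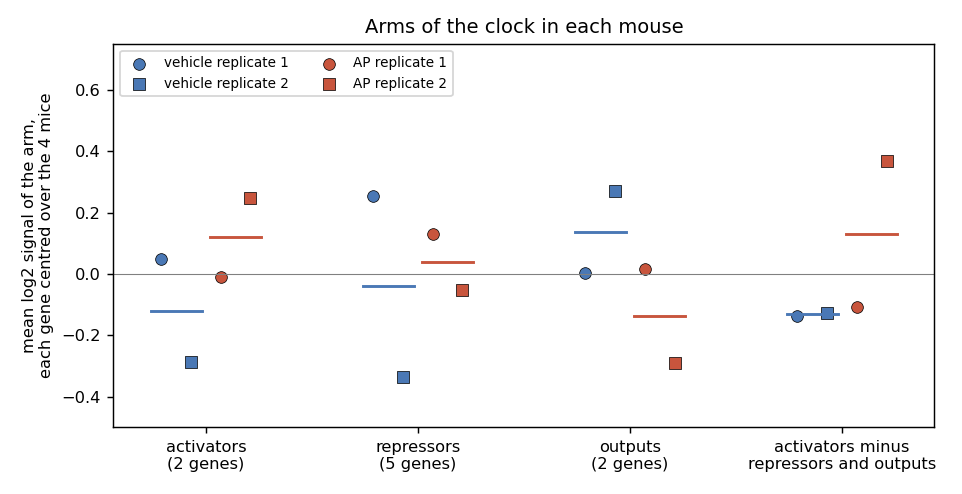
Mean log2 signal of the activators, repressors and outputs in each mouse, each gene centred over the 4 mice, and the difference between the activators and the other arms. Symbols are mice, colored by group, and bars are group means. In the right column, AP replicate 2 lies at 0.37 and the other 3 mice lie between -0.14 and -0.11.

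A list of 22 further genes of the pathway gave 20 that passed the filter, of which 18 were well above background on all 4 arrays. The counts that follow are over these 18, since Arntl2 passed through the AP-treated mice alone and Bhlhe41 through the vehicle-treated mice alone. Their mean was higher with AP in 11 and lower in 7 (14 and 4 with normexp, 15 and 3 with each array scaled to its median), with a median log2 fold change of 0.28, and 0 passed the adjusted threshold (limma). At an unadjusted limma p under 0.05, 3 were higher (Rora, Rorb and Nfil3) and 0 lower, beside 3.78% and 2.26% of named genes. Higher genes at that p were 2 with a variance trend, with the replicate block or in the authors' table. By the t-test of the study's methods there was 1, Rorb, and the p of that test was 0.074 for Rora and 0.116 for Nfil3. Lower genes were 1, Cry2, at an unadjusted limma p under 0.05 with normexp and in the authors' table. The AP-treated mice were both above the vehicle-treated mice in 8 of the 18 and both below in 1, beside 20.1% and 17.3% of named genes.

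The ROR receptor genes Rora and Rorb, whose products activate Arntl, were higher in both AP-treated mice than in both vehicle-treated mice. Rora (A_55_P2078123) was 0.09 and -0.44 with the vehicle and 0.71 and 0.79 with AP, which is a difference of 0.92 on the log2 scale (standard error 0.27, 95% interval 0.22 to 1.63). Rorb (A_55_P2290388) was -2.62 and -2.48 with the vehicle and -2.00 and -1.72 with AP, which differ by 0.70 (standard error 0.22). Rora ran from 0.66 to 1.19 and Rorb from 0.55 to 0.84 with a mouse left out, and each had an adjusted p of 0.80 (limma). Rorb was 0.30 with normexp, and its unadjusted limma p of 0.030 became 0.122 there, 0.107 in the authors' table, 0.059 with a variance trend and 0.054 with the replicate block.

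The D-box factors outside the members were both higher in the AP-treated mice as well. Nfil3, the repressor at D-boxes (A_55_P2035320), was 3.15 and 2.96 with the vehicle and 4.50 and 3.73 with AP. Its log2 fold change was 1.06 (standard error 0.33, 95% interval 0.19 to 1.94), or 2.09-fold, with an adjusted p of 0.80 (limma), and it was 0.68 to 1.45 with a mouse left out. Hlf, an activator at D-boxes (A_55_P2009752), was 0.50 and 1.50 with the vehicle and 1.86 and 1.65 with AP, which differ by 0.76 (standard error 0.39), and by 0.26 without vehicle replicate 1.

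The other repressors had lower means with AP in the 3 genes well above background on all arrays. This became 2 of 3 with normexp, with each array scaled to its median, without vehicle replicate 1 and without AP replicate 1. Each time it was Cry1 that turned. With median scaling Cry1 was 0.017, which is below the median of all probes in that setting (0.073). Cry2, the cryptochrome that joins PER in repressing CLOCK and BMAL1 (A_55_P2016540), was 3.64 and 3.29 with the vehicle and 3.07 and 2.94 with AP, and was the gene of this list with both AP-treated mice below both vehicle-treated mice. Its log2 fold change was -0.47 (standard error 0.23, adjusted p of 0.80 by limma). Cry1 was -0.07 and Bhlhe40, which competes for E-boxes, was -0.92 (standard error 0.53; -0.31 without vehicle replicate 1), and in both the groups overlapped. No change is given for Bhlhe41, which was not well above background in AP replicate 1. Ciart was not well above background on any array. The kinases and ubiquitin ligases that set the stability of PER and CRY had 5 measured genes between -0.07 and 0.30, and Fbxl21 did not pass the filter. The clock-controlled genes Noct, Nampt, Usp2 and Wee1 were 0.56, 0.48, 0.13 and -0.03, and the AP-treated mice were both above the vehicle-treated mice at Noct alone. Noct was 0.19 without AP replicate 1, and Nampt was 0.01 without vehicle replicate 2. Timeless was -0.10, and 0.27 without vehicle replicate 2. Arntl2, the paralog of Arntl, was not well above background in either vehicle-treated mouse, and no change is given for it.

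**Figure D4:**
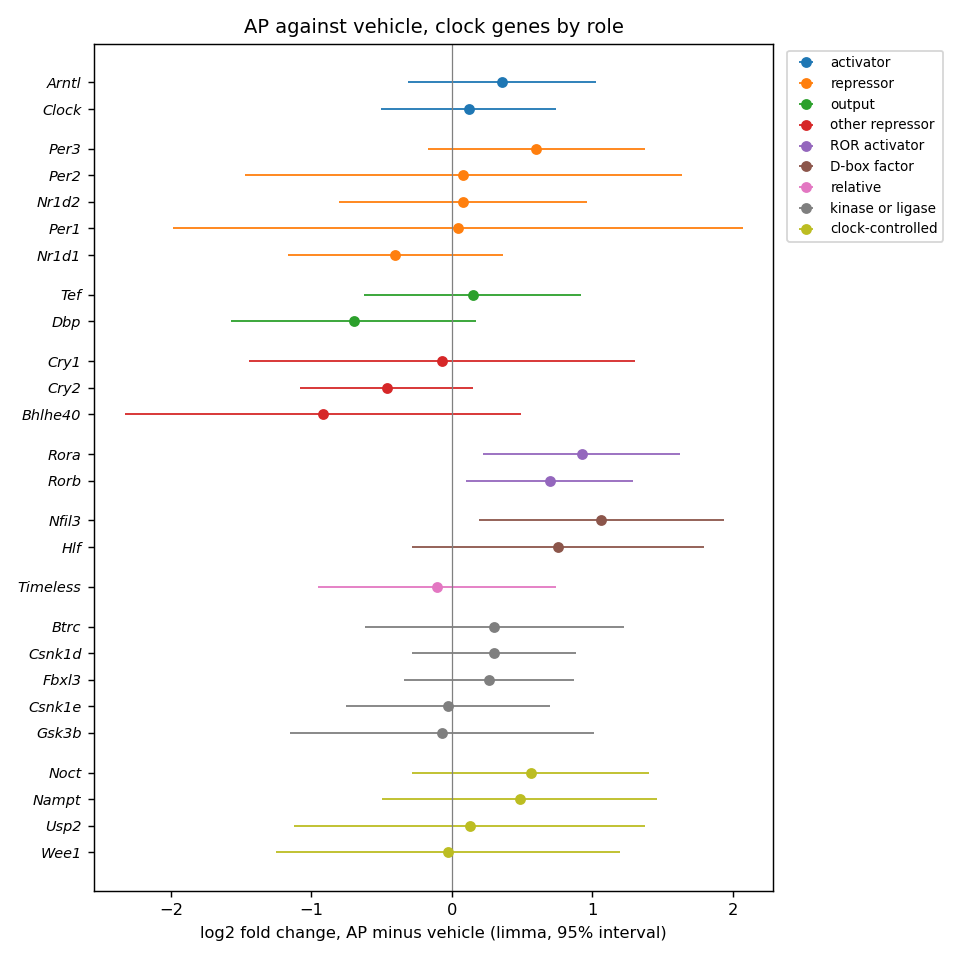
Log2 fold change of AP over vehicle (points) with 95% intervals from limma (lines) for the 9 measured clock genes and 17 further genes of the pathway, grouped and colored by role. Arntl2 and Bhlhe41, which were not well above background on every array, are not drawn. The intervals of Rora, Rorb and Nfil3 lie above 0 before adjustment over all probes, and the interval of every clock gene shown by its brightest probe contains 0.

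Over the 4 mice, 276 of 12129 named genes that were well above background on all arrays followed the centred values of Arntl to within 0.1 (root mean square difference on the log2 scale), the nearest being Wdr60, Zik1 and 4921524J17Rik, and 28 followed those of Dbp, the nearest being Mybl2, Cenpt and Tmem255b. With 4 points each, this is a description of these arrays.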

How the data were processed

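Total RNA from the BAT of 4 Tg mice, 2 given the vehicle and 2 given AP, was labeled with Cy3 and hybridized to 1 SurePrint G3 Mouse array per mouse. The authors extracted the scans with Agilent Feature Extraction 10.7.1.1 (submitters' processing notes) and deposited the intensity of each spot, background-subtracted and without scaling across arrays. A second table that the authors deposited holds log2 values whose normalization and centring are not stated. Its columns have medians of -0.28, -0.16, -0.44 and -0.29, and its differences between arrays correlated with those of the intensities at r of 0.999 over 29061 probes with slopes near 1, which fixes its log2 scale and direction.

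The processed signals were taken to log2 and scaled by subtracting the 75th percentile of the array, without control spots and outlier-flagged spots, and spots of a probe were averaged. The comparison used limma 3.58.1 (lmFit, eBayes; R 4.3.3) without covariates, after a test on simulated data, with Benjamini-Hochberg adjustment and a threshold of 0.05. The number of arrays, 2 per group, limits the precision of every value. For a gene with several kept probes the brightest was taken first. Accessions were named through a RefSeq table of GRCm38.p6 (26582 probes), for names only, since the array design uses another build. The table of promoters is of the same RefSeq build, with the most upstream start of a gene taken.

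The members and lists were chosen with earlier results of these data known. All members were to be named, with further pathway genes at an unadjusted p under 0.05, and the 3 genes most like Arntl and Dbp. The other pathway genes named were chosen after their values were seen, and 1 measured gene of the list is counted but not reported here by name. The arm of 3 planned activators held 2, since Npas2 was not well above background on any array. Alternatives were normexp (offset 50, on the median spot signal), quantile and median scaling, no filter, a variance trend, a filter on all 4 arrays, the authors' table, the methods' t-test, the mean of a gene's probes, a replicate block and leaving out each mouse. A block for slide and scan was not run, since there was 1 of each.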

Additional observations from a re-analysis of the deposited data

How the results depend on the processing

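In all settings 0 probes passed the adjusted threshold, beside 1003 to 2610 at an unadjusted p under 0.05 (limma, or the methods' t-test with 1478). Arntl, Per3, Nr1d1 and Dbp kept their direction in every setting run. With normexp, Clock (-0.015) and Nr1d2 (-0.025) turned and the median of the other pathway genes was 0.15. In the authors' table the median of all probes was -0.17 instead of -0.012, and Clock (-0.041), Nr1d2 (-0.084), Per1 (-0.12), Per2 (-0.081), Tef (-0.013) and the repressor mean (-0.082) turned, with 0.12 for the other pathway genes. For the genes named here, this table gave the fold changes of the 75th percentile less the same constant, with the arm difference unchanged at 0.26. Relative to the shift, 7 of the 9 members were higher. That is the count with the 75th percentile by construction, and not a separate check of it. Without a filter, 2610 probes had an unadjusted p under 0.05 (limma). The arm difference was then 0.54, since Npas2, not well above background on any array, entered the activators.

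With each mouse left out, the unadjusted count ran from 1003 (without AP replicate 1) to 2178, the arm difference from 0.02 (without AP replicate 2) to 0.50, the other pathway genes from 0.19 to 0.41 and the repressor mean from -0.21 to 0.37. Clock ran from -0.056 to 0.30, Nr1d2 from -0.31 to 0.47, Per1 from -0.94 to 1.02, Per2 from -0.65 to 0.81 and Tef from -0.15 to 0.44. Members with a higher mean were 7 of 9 with all mice, 3 without vehicle replicate 2 and 4 without AP replicate 1. What causes these shifts was not tested.

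The replicate numbers are not stated to pair the mice. With the number as a block, 0 probes passed the adjusted threshold, and 1226 had an unadjusted p under 0.05. In this balanced design the block cannot move a difference of group means, so the arm difference (0.26) and the median of the other pathway genes (0.28) are the same by construction. With the crossed pairing, added after seeing the data, the counts were 0 and 1566.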
